A study of Mus musculus with 24 samples.

Results

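The epidermal growth factor (EGF) family was examined as 10 named genes of the 51138 in the count table, 7 ligands (Areg, Ereg, Hbegf, Tgfa, Btc, Epgn and Egf) and 3 receptors (Egfr, Erbb2 and Erbb3). They were chosen by name as a family, and all 10 had at least 10 counts over the samples and were tested. They were measured by bulk RNA sequencing in 24 constructs of biphasic calcium phosphate (BCP), a granular ceramic bone substitute, taken from under the skin of the back at week 2. Every host was a Foxp3 DTR/eGFP mouse, male or female and 8 to 9 weeks old, in which cells expressing Foxp3 carry a diphtheria toxin receptor. The 6 groups had 4 samples each, 1 per animal. BCP held no cells. BCP+MSC held bone marrow mesenchymal stromal cells (MSC) of C57BL/6J mice. BCP+MSC+RvE1 held MSC primed with the lipid mediator resolvin E1 (RvE1) before implantation. BCP+MSC+Treg held MSC cocultured with activated regulatory T cells (Treg) sorted from Foxp3 DTR/eGFP spleens. In (dep)BCP+MSC the same constructs were placed in hosts given diphtheria toxin to remove Treg. In (dep)BCP+MSC+RvE1inj the toxin-treated hosts also had RvE1 injected locally each day. RNA came from the whole construct, with seeded and host cells together, so fewer cells of a type and less RNA per cell cannot be told apart.

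EGF family ligands are made as membrane-bound precursors that proteases of the ADAM family release. Areg (amphiregulin), Tgfa (transforming growth factor alpha), Egf and Epgn (epigen) bind the receptor EGFR, while Hbegf (heparin-binding EGF-like growth factor), Btc (betacellulin) and Ereg (epiregulin) also bind ERBB4. EGFR pairs with ERBB2, which has no known ligand of its own, and with ERBB3, whose kinase is weak and whose ligands are the neuregulins. Areg is known as a repair factor made by tissue Treg and other immune cells, and also as a growth factor that keratinocytes make for themselves. Hbegf is a product of macrophages and epithelium, and its protein is the entry receptor of diphtheria toxin in primates. The transgene of these hosts is of that kind, and whether any of its reads were counted to Hbegf was not tested.

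Total counts per sample ran from 8482701 to 144417743, and the 7 shallowest libraries held at most 18077487 against at least 38646463 in the others. A floor of 3 counts was worth 0.0208 to 0.354 CPM, which is the count scaled to library size, and covers counting error only. Foxp3, the gene that marks the depleted cells, was at 0.985 ± 0.542 CPM (SD, n = 4) in (dep)BCP+MSC and 0.933 ± 0.240 CPM in BCP+MSC, ranges that overlapped. The summed level of 8 Treg markers, Foxp3 among them, was 47.4 to 93.5 CPM in (dep)BCP+MSC and 127.9 to 144.2 CPM in BCP+MSC, without overlap. The mean log2 CPM of the same list, which weighs each gene alike, did overlap (1.80 to 2.87 against 2.32 to 2.84). Keratinocyte and skin markers (16 genes) stood apart in the (dep)BCP+MSC library numbered 1, at 647.2 CPM summed against 39.9 to 167.1 CPM in the other 23 libraries, and skeletal muscle markers were far lower in BCP+MSC replicate 2 (347.9 CPM) than in the rest (4563 CPM or more). The 8 comparisons below share samples, since BCP serves in 3 of them and BCP+MSC in 4.

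Areg, Ereg, Epgn and Btc lie together on chromosome 5 of GRCm38 within 376 kb. Epgn (91027464 to 91035215), Ereg (91074622 to 91093646) and Areg (91139599 to 91148432) are on the plus strand and Btc (91357261 to 91402994) on the minus strand. The gaps between neighbours were 39.4 kb from Epgn to Ereg, 46.0 kb from Ereg to Areg and 208.8 kb from Areg to Btc. Reads had been counted without regard to strand, and an antisense transcript, Gm19610, overlaps Ereg. Of the other members, Tgfa (chromosome 6), Egf (chromosome 3), Egfr and Erbb2 (chromosome 11) and Erbb3 (chromosome 10) also overlap annotated genes, Erbb2 the protein-coding Mien1, while Areg, Epgn, Btc and Hbegf overlap none.

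Promoter windows, 250 bases before to 50 after the start, of 7 members were taken from RefSeq's table (GRCm38.p6). Those of Areg (chr5:91139349-91139648, plus strand), Tgfa (chr6:86194972-86195271, plus strand) and Erbb2 (chr11:98412234-98412533, plus strand) are shown because both ligands varied with Erbb2 across the samples, as given further on. They are written 5′ to 3′ in the direction of the gene, and capitals mark matches on either strand to the cAMP response element TGACGTCA, the AP-1 element TGACTCA, the TATA box TATAAA and the GC box GGGCGG.
Areg: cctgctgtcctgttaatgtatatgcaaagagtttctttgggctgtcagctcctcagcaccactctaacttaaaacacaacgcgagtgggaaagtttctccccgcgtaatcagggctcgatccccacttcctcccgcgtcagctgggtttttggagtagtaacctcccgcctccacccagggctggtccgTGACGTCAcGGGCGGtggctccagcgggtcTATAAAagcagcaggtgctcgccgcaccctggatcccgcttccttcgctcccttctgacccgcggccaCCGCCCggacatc
Tgfa: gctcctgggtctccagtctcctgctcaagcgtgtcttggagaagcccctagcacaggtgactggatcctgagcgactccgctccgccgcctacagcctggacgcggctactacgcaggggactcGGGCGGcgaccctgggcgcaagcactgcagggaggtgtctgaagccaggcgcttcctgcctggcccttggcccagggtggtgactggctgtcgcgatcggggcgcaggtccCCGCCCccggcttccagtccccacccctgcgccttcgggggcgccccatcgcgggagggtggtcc
Erbb2: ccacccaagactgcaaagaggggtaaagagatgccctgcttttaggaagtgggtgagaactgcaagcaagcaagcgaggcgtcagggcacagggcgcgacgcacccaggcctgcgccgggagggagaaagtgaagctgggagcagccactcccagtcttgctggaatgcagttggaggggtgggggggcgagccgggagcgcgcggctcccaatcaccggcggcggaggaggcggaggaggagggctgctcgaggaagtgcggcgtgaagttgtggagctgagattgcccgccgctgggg
The Areg window held the cAMP response element 61 bases before the start, a match found in 1.8% of 32544 distinct promoter windows of the same length. It also held a TATA box 31 bases before the start (13.6% of windows) and 2 GC boxes (35.9% of windows). The Tgfa window held 2 GC boxes and none of the other motifs, and the Erbb2 window held none of the 4. Btc varied with Erbb2 as well (r = 0.65), and its window, not shown, also held none of the 4. The AP-1 element, present in 5.19% of all windows, was in none of the 7. These are matches of letters, with no measurement of binding.

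Per kilobase of exon, Hbegf was the most abundant member and Epgn the least (medians over 24 samples of 6.66 and 0.0412 CPM per kb). The receptors Egfr (4.53 CPM per kb) and Erbb2 (2.83) followed Hbegf, then Areg (1.39) and Erbb3 (1.23). Egf (0.402), Btc (0.250), Ereg (0.236) and Tgfa (0.174 CPM per kb) were lower. Neighbours in this order overlapped over the samples. Areg had the widest range, from 0 to 17.5 CPM per kb, a highest value above that of every other member.

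**Figure D1:**
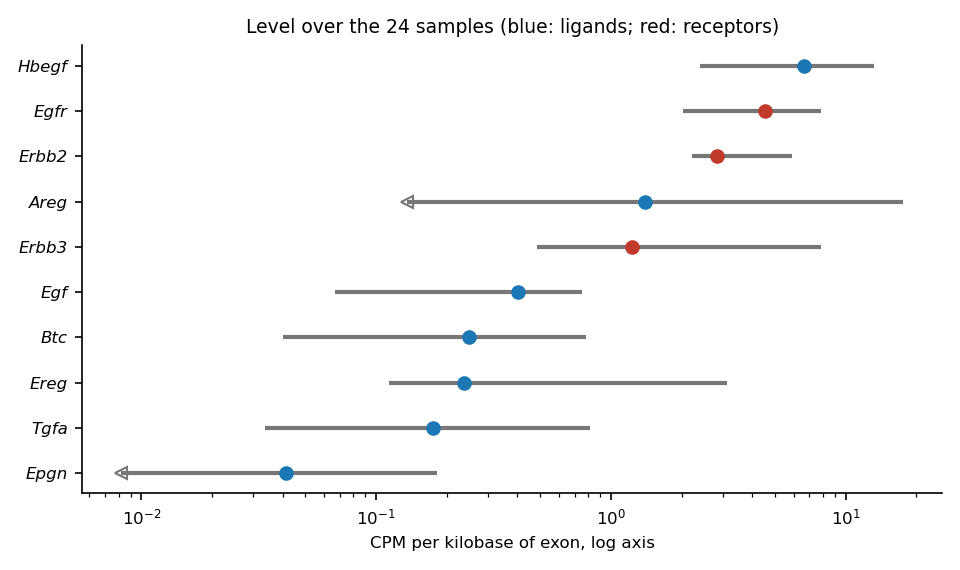
Median (point) and range (line) of each member over the 24 samples, in CPM per kilobase of exon on a log axis, ligands in blue and receptors in red. Arrowheads mark members with samples at 0, drawn from their lowest value above 0. Hbegf has the highest median (6.66) and Areg the widest range.

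For every member but Erbb3, most of the variation was between animals of the same group. With groups of 4, a gene with no difference among the groups would show this too, and the share over all genes was not computed. Of the variance of log2 CPM over the 24 samples, the part within groups was 89.1% for Hbegf, 84.5% for Ereg, 82.3% for Btc, 77.5% for Egfr and 76.3% for Areg, and lowest for Erbb3 at 48.3%. For each member, every pair of groups next to each other in the order of mean log2 CPM overlapped. In a single test of any difference among the 6 groups (edgeR quasi-likelihood F test, adjusted over all 30564 genes tested), no member had an adjusted p under 0.05, against 4.75% of all genes. The smallest were Erbb3 (adjusted p = 0.126) and Ereg (adjusted p = 0.190), the 2 members with an unadjusted p under 0.05, a count that was 3 by DESeq2.

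**Figure D2:**
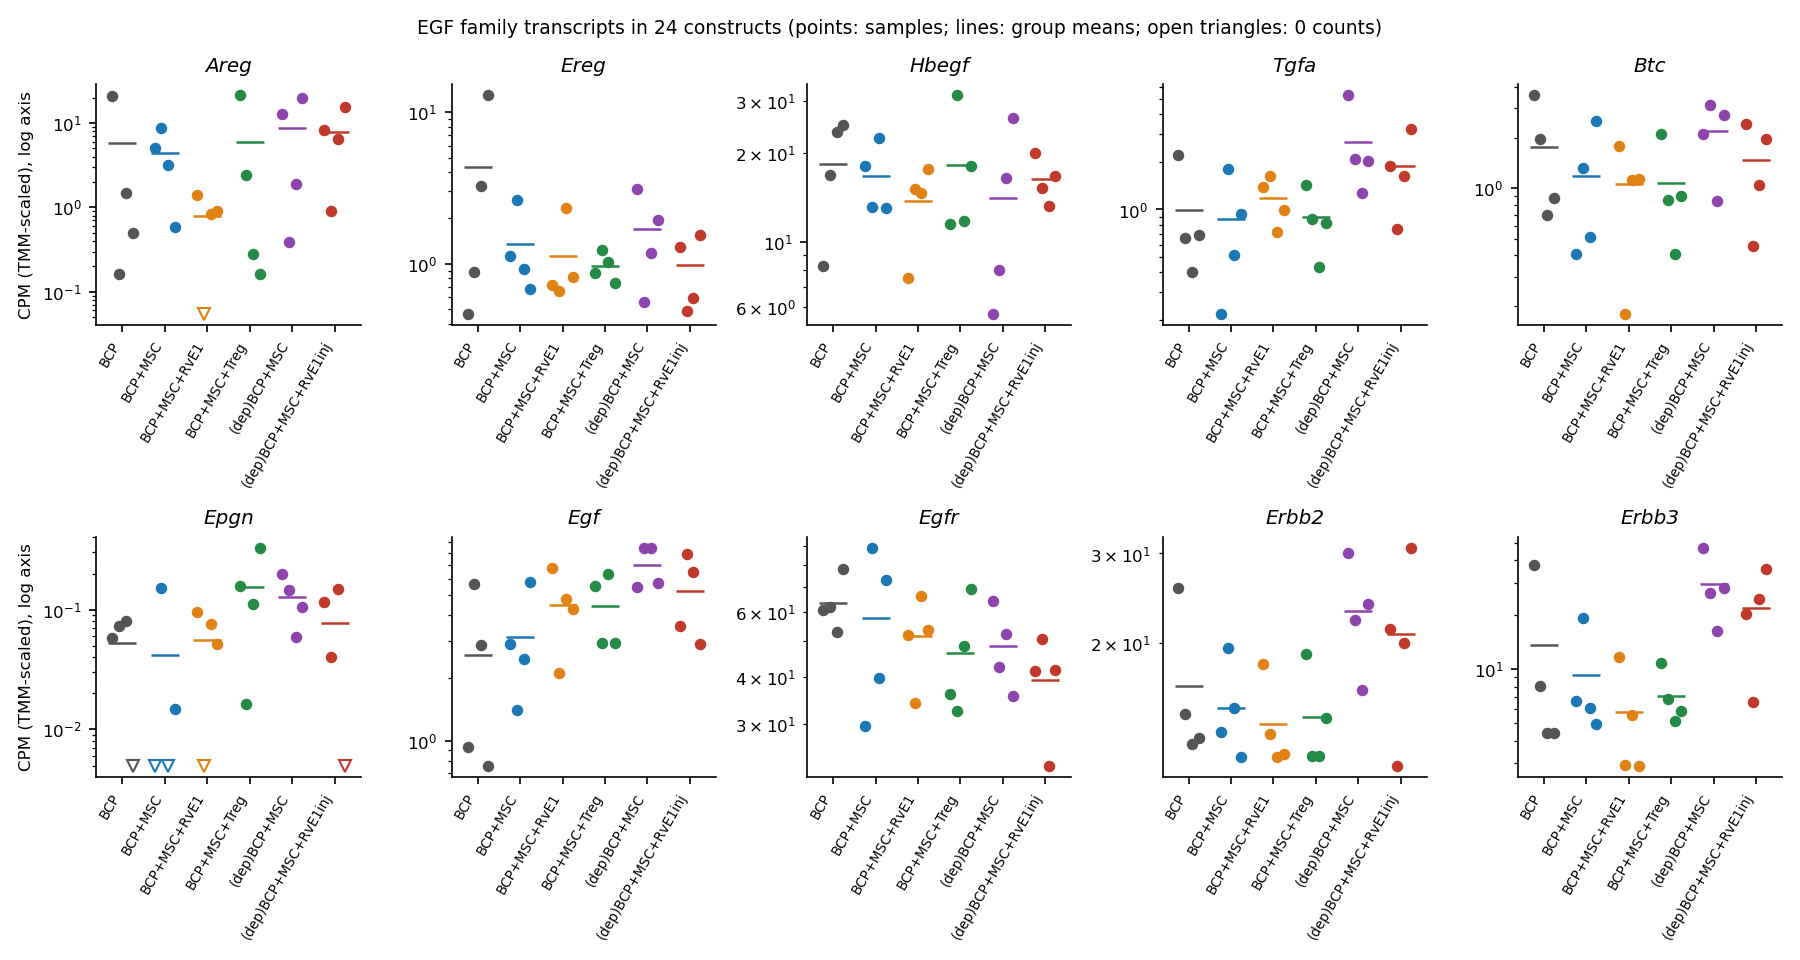
CPM of each member in each sample (points) by group, on a log axis of its own per panel, with the group mean as a line and samples at 0 as open triangles. Areg spans from 0.164 to 21.3 CPM within BCP+MSC+Treg, and Erbb3 is at 16.3 CPM or more in all 4 (dep)BCP+MSC samples.

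Areg varied widely between animals of the same group, and in BCP and BCP+MSC+Treg 1 animal of 4 was far above the rest. In BCP, which held no cells, the 4 samples had 20.9, 0.164, 1.47 and 0.504 CPM. In BCP+MSC they had 5.05, 8.70, 3.18 and 0.594 CPM, and after RvE1 priming 1.40, 0, 0.832 and 0.916 CPM. The samples with Treg had 21.3, 2.43, 0.280 and 0.164 CPM. The BCP+MSC+Treg mean of 6.04 ± 10.2 CPM (SD, n = 4) thus held 1 sample 8.77-fold above the next, with 88.1% of the group's sum, and without it the mean was 0.958 ± 1.28 CPM (n = 3). In the toxin-treated hosts Areg was at 12.7, 0.385, 1.92 and 19.8 CPM in (dep)BCP+MSC and at 8.37, 0.915, 6.42 and 15.7 CPM in (dep)BCP+MSC+RvE1inj. All groups overlapped, and the highest samples of 4 groups (BCP, BCP+MSC+Treg and both groups of toxin-treated hosts) lay between 15.7 and 21.3 CPM.

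BCP+MSC+Treg against BCP+MSC+RvE1 asked how the priming routes differed, and Areg was 2.89 ± 1.58 higher in BCP+MSC+Treg on the log2 scale (± SE, adjusted p = 1.0 by edgeR). The exact two-sided permutation test over the 70 arrangements of 4 against 4, whose smallest possible p is 0.0286, gave 0.486. Without BCP+MSC+Treg replicate 1 the difference was 0.29 (adjusted p = 1.0). Blocking on the replicate number, which in these groups marks samples that deviate together, gave 1.67 (adjusted p = 1.0), and DESeq2 gave 2.95 (adjusted p = 1.0). No member passed either limit used here, an adjusted p under 0.05 (0% of all genes) or an unadjusted p under 0.05 with a log2 fold change beyond 1 either way (2.22% of all genes), and DESeq2 put Areg past the second.

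Areg did not pass in the other comparisons either, and its SE was between 1.47 and 1.59 on the log2 scale. Its log2 difference was -2.78 in BCP+MSC+RvE1 against BCP (adjusted p = 0.376) and -2.40 against BCP+MSC (adjusted p = 0.924). It was -0.38 in BCP+MSC against BCP, 0.11 in BCP+MSC+Treg against BCP and 0.48 in BCP+MSC+Treg against BCP+MSC. Without BCP replicate 1 the difference from BCP was 0.16 in BCP+MSC+RvE1, 2.56 in BCP+MSC and 3.05 in BCP+MSC+Treg. Without BCP+MSC+Treg replicate 1 it was -2.49 in that group. Areg in (dep)BCP+MSC was 0.98 above BCP+MSC and in (dep)BCP+MSC+RvE1inj -0.15 against (dep)BCP+MSC.

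Ereg, the neighbour of Areg, was lower in all 3 groups of untreated hosts with MSC than in BCP, but through 1 animal. The BCP samples had 0.467, 0.877, 3.26 and 12.8 CPM. The samples of BCP+MSC (0.683 to 2.62 CPM), BCP+MSC+RvE1 (0.662 to 2.33 CPM) and BCP+MSC+Treg (0.740 to 1.23 CPM) lay inside the BCP range. The log2 difference from BCP was -1.69 in BCP+MSC, -1.93 after RvE1 priming and -2.15 with Treg, with adjusted p-values of 0.888, 0.3 and 0.614 by edgeR. Without BCP replicate 4, the sample at 12.8 CPM, these differences were -0.23, -0.46 and -0.69, and exact permutation p-values over all samples were 0.600, 0.429 and 0.371. In the toxin-treated hosts Ereg ran from 0.485 to 3.09 CPM.

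Against BCP, Ereg was the 1 member of 10 past the unadjusted limit in each group with MSC. All genes passed at 4.32% in BCP+MSC, 8.54% after RvE1 priming and 5.85% with Treg, or 1.83%, 3.18% and 2.09% on the lower side alone, and 0% at the adjusted limit in each. The median log2 difference of the 10 members was -0.26, -0.36 and -0.16, beside 0.06, 0.03 and 0.03 for all genes. DESeq2 put 3 members past the unadjusted limit in BCP+MSC+RvE1 against BCP, Areg (-2.93, adjusted p = 0.175) and Ereg (-2.01, adjusted p = 0.115) among them. Against BCP+MSC, no member passed in BCP+MSC+RvE1 (0% of all genes adjusted and 2.5% unadjusted) or in BCP+MSC+Treg (0% and 2.56%), and none had an unadjusted p under 0.05 by edgeR, nor did any pass a limit by DESeq2.

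Hbegf (GRCm38 chr18:36504929-36515805, minus strand) was evenly expressed, at 5.68 to 31.4 CPM over the 24 samples, and no group stood out. Its means were 18.4 ± 7.60 CPM in BCP, 16.6 ± 4.56 in BCP+MSC, 13.7 ± 4.33 in BCP+MSC+RvE1, 18.1 ± 9.32 in BCP+MSC+Treg, 14.1 ± 9.31 in (dep)BCP+MSC and 16.3 ± 2.88 in (dep)BCP+MSC+RvE1inj (SD, n = 4 each). Its 8 log2 differences lay between -0.42 and 0.40, each with an SE of 0.41. Btc, which activates EGFR and ERBB4, was at 0.181 to 3.56 CPM and highest in mean in (dep)BCP+MSC (2.20 ± 0.999 CPM), where the log2 difference from BCP+MSC was 0.89 ± 0.68 (SE, adjusted p = 0.492). Epgn, an epithelial ligand, had at most 12 counts in a sample and was at or under the floor of 3 counts in 11 of 24, so that differences between groups were not detectable at this depth.

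The clearest contrast of the family was in the hosts depleted of Treg, where Erbb3, Tgfa, Egf and Erbb2 were higher in (dep)BCP+MSC than in BCP+MSC, none of them past the adjusted limit of edgeR. Erbb3 was at 47.0, 26.4, 16.3 and 28.0 CPM in (dep)BCP+MSC against 6.66, 19.3, 6.06 and 4.99 CPM in BCP+MSC. The log2 difference was 1.67 ± 0.67 (SE, adjusted p = 0.168), and 1 BCP+MSC sample lay above the lowest (dep)BCP+MSC sample. Tgfa was at 5.28, 2.10, 1.27 and 2.02 CPM against 0.218, 1.80, 0.513 and 0.936 CPM, a difference of 1.58 ± 0.62 (adjusted p = 0.150). Egf, a ligand made mainly by kidney and salivary gland, was at 5.48, 8.46, 8.38 and 5.75 CPM against 2.92, 1.40, 2.47 and 5.76 CPM, a difference of 1.16 ± 0.52 (adjusted p = 0.211). For Egf, BCP+MSC replicate 4 lay above the lower 2 (dep)BCP+MSC samples and the other 3 BCP+MSC samples below all of them. Erbb2 was at 30.0, 22.3, 16.2 and 23.9 CPM against 13.4, 19.5, 14.9 and 12.0 CPM, a difference of 0.62 ± 0.28 (adjusted p = 0.212) that was under the fold limit.

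Of the 10 members, 3 thus passed the unadjusted limit in (dep)BCP+MSC against BCP+MSC, all higher. All genes passed at 13.2%, with 6.65% on the higher side, and 3.92% had an adjusted p under 0.05. DESeq2 put Erbb3 (1.76, adjusted p = 0.0465) and Tgfa (1.69, adjusted p = 0.0489) under the adjusted limit. Exact permutation over the 8 samples of these groups gave p-values of 0.0571 for Erbb3, Tgfa and Erbb2 and 0.0857 for Egf. Without the (dep)BCP+MSC library numbered 1, the shallowest of the series, Erbb3 was at 1.35, Tgfa at 1.04, Erbb2 at 0.47 and Egf at 1.24, and of these Egf alone passed the unadjusted limit. No member passed without BCP+MSC replicate 1 or without BCP+MSC replicate 3. Egf also did not pass without BCP+MSC replicate 2 (0.92), the sample low in skeletal muscle markers. Nor did it pass without the (dep)BCP+MSC libraries numbered 2 (1.06) or 4 (1.08). The other members were Areg (0.98), Btc (0.89), Epgn (1.37), Ereg (0.30), Hbegf (-0.23) and Egfr (-0.25 on the log2 scale).

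Keratinocyte and skin markers, read as a list, moved with this contrast. Of the 16 markers, 4 were higher in (dep)BCP+MSC at an adjusted p under 0.05 and 8 passed the unadjusted limit, all higher, with a median log2 difference of 2.72. Their summed level was 66.1 to 647.2 CPM in (dep)BCP+MSC and 56.6 to 98.4 CPM in BCP+MSC. Krt5, a keratin of the basal layer, was at 28.5 ± 26.1 CPM against 6.35 ± 8.25 CPM, and Trp63 at 7.89 to 14.1 CPM against 1.125 to 5.84 CPM. Krt10, Krt1 and Lor were high only in the (dep)BCP+MSC library numbered 1 (132.9, 10.07 and 46.75 CPM). In the other (dep)BCP+MSC libraries Krt10 was at 1.75 to 2.07 CPM, against 1.87 to 3.19 CPM in BCP+MSC. At most 2 of the 16 markers were at 0 in a (dep)BCP+MSC sample, against at most 4 in BCP+MSC. With the mean of these markers as a covariate, Erbb3 was at 0.77 (adjusted p = 0.305), Tgfa at 0.67 (adjusted p = 0.561) and Erbb2 at 0.21 (adjusted p = 0.682), while Egf was at 1.495 (adjusted p = 0.189) and was the 1 member past the unadjusted limit. Markers of Schwann cells, which use ERBB2 and ERBB3 to receive neuregulin, were also higher (3 of 9 at an adjusted p under 0.05, median 1.28). So were those of mast cells (1 of 8, median 1.10, with mean log2 CPM of 3.59 to 3.91 against 2.05 to 3.40). At that limit some markers were lower for fibroblasts (6 of 10, median -1.55), osteoblasts (2 of 8, median -0.77) and Treg (1 of 8, median 0.09). For neutrophils 1 of 8 was higher, with a median of -0.43. Skeletal muscle markers had 0 of 12 past that limit and 2 higher past the unadjusted limit, with a median of 1.05. Of all genes, 3.92% passed the adjusted limit, and 6.65% the unadjusted limit on the higher side. The part of these cell types in the differences was not tested otherwise.

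Injection of RvE1 in depleted hosts, (dep)BCP+MSC+RvE1inj against (dep)BCP+MSC, gave no member past either limit, beside 0% of all genes at the adjusted and 5.13% at the unadjusted limit, and none had an unadjusted p under 0.05. Of the 10 members, 9 were lower, with a median log2 difference of -0.43 beside 0.00 for all genes. Erbb3 was at 20.2, 6.56, 24.4 and 35.7 CPM (difference -0.44 ± 0.66) and Tgfa at 1.89, 0.754, 1.64 and 3.26 CPM (-0.48 ± 0.61). In both, (dep)BCP+MSC+RvE1inj replicate 2 was the low sample. The keratinocyte and skin markers were lower as well, 7 of 16 past the unadjusted limit and 0 higher, with a median log2 difference of -1.51 and a summed level of 53.3 to 167.1 CPM against 66.1 to 647.2 CPM. The 647.2 CPM was that of the (dep)BCP+MSC library numbered 1. The other libraries of that group, at 66.1, 120.6 and 155.8 CPM, lay inside the (dep)BCP+MSC+RvE1inj range. The part of these markers in the members' differences was not tested. The study's methods describe no injection without RvE1 in the (dep)BCP+MSC hosts, so RvE1 and the daily local injection cannot be told apart. The difference after RvE1 injection was set against that after RvE1 priming, uses that also differed in route, dose and toxin treatment of the host. In this test of the difference itself, 0 members had an unadjusted p under 0.05 by edgeR or DESeq2. Of all genes, 0% passed the adjusted and 4% the unadjusted limit. Areg had the estimate farthest from 0, at 2.26 ± 2.12 on the log2 scale.

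**Figure D3:**
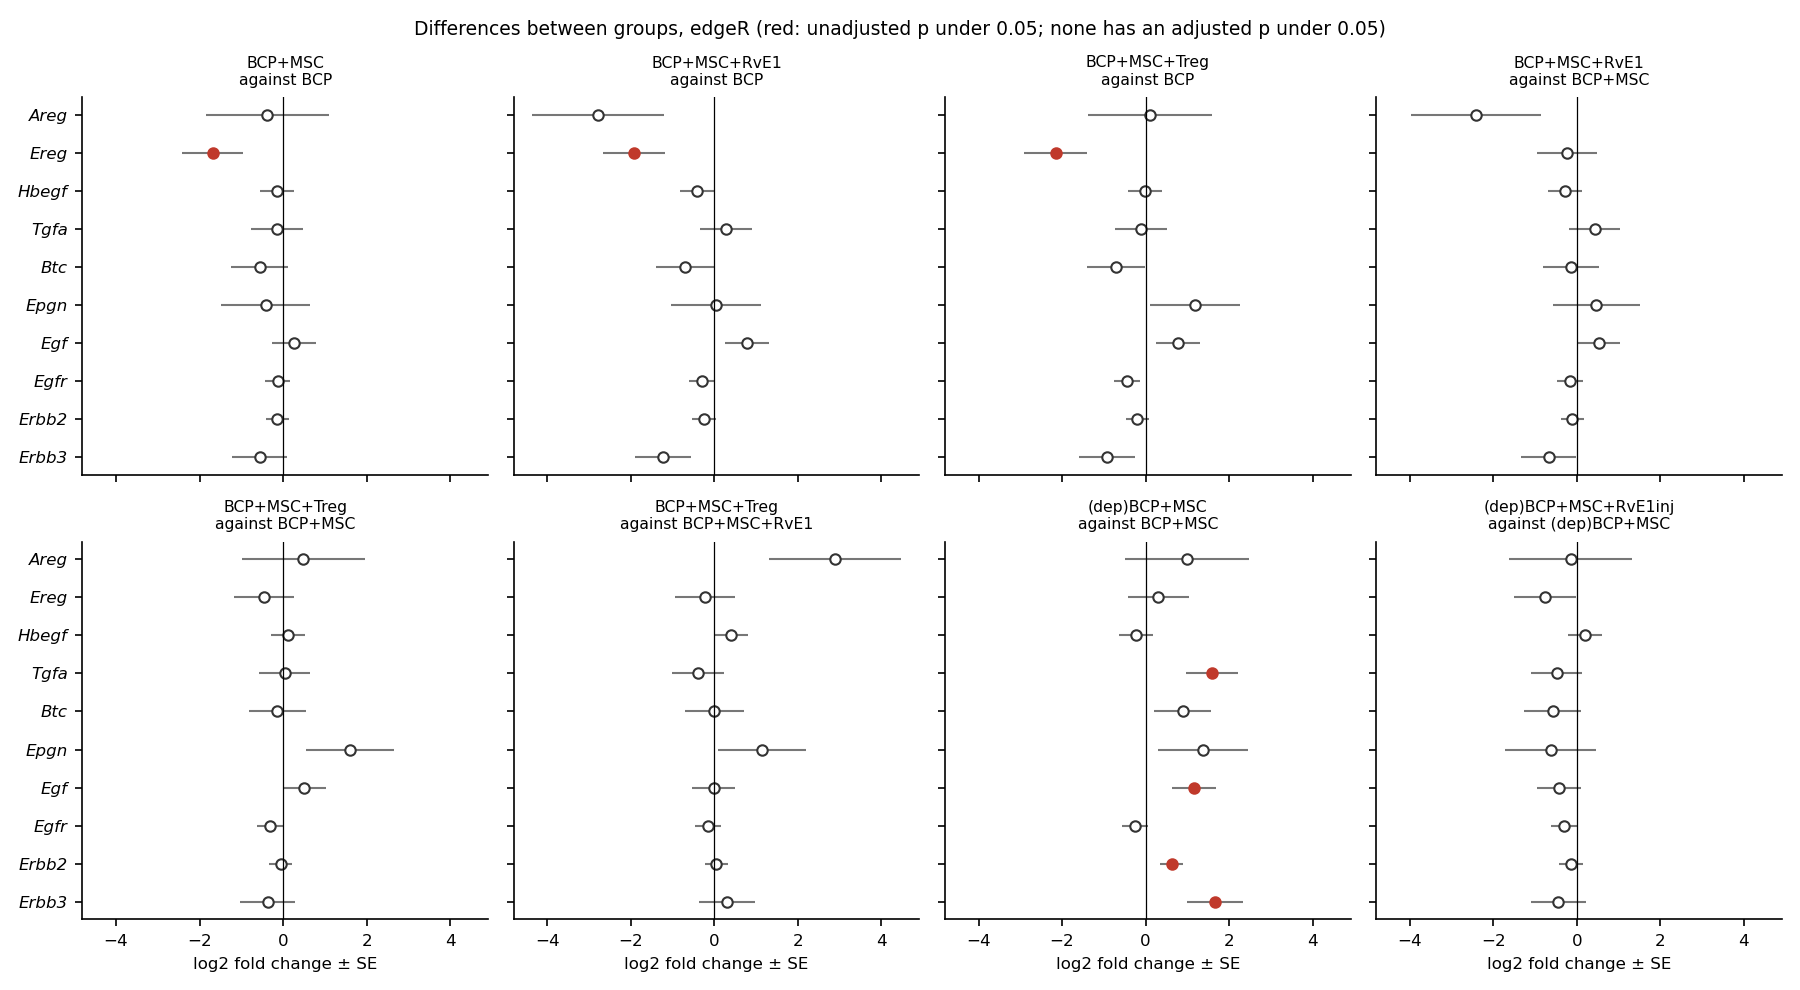
Log2 fold change of each member in the 8 comparisons, with its SE as a bar, from the edgeR model. Filled red points have an unadjusted p under 0.05, namely Ereg in the 3 comparisons with BCP and Tgfa, Egf, Erbb2 and Erbb3 in (dep)BCP+MSC against BCP+MSC. Areg has the longest bars.

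Egfr, the receptor of all 7 ligands, was the most even of the receptors after Erbb2, from 23.1 to 89.3 CPM over the samples. Its means were 63.4 ± 10.6 CPM in BCP, 57.9 ± 27.9 in BCP+MSC, 51.5 ± 13.2 in BCP+MSC+RvE1, 46.5 ± 16.6 in BCP+MSC+Treg, 48.6 ± 12.3 in (dep)BCP+MSC and 39.3 ± 11.6 in (dep)BCP+MSC+RvE1inj. The widest spread was in BCP+MSC, with 29.5, 89.3, 39.7 and 72.9 CPM, and the 8 log2 differences lay between -0.45 and -0.13 with an SE of 0.31.

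Across the 24 samples Erbb2 and Erbb3 varied together, and Tgfa, Areg and Btc with both. Pearson's r of log2 CPM was 0.93 between Erbb2 and Erbb3, 0.83 between Tgfa and Erbb2, 0.76 between Tgfa and Erbb3, 0.70 between Areg and Erbb3 and 0.67 between Areg and Erbb2. Within groups, as deviations from the group means, these were 0.91, 0.81, 0.73, 0.68 and 0.64. Btc was at 0.67 with Erbb3 and 0.65 with Erbb2. The ligands were less alike, with 0.59 between Tgfa and Btc, 0.50 between Areg and Btc and 0.41 between Areg and Tgfa. Areg did not vary with Egfr (-0.21) or Hbegf (-0.09), and hardly with its neighbour Ereg (0.14). These values describe samples that share depth and tissue content and were not tested.

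Areg, Tgfa, Erbb2 and Erbb3 followed the keratinocyte and skin markers, and Btc less (0.51). Over the 24 samples r with the mean log2 CPM of the list was 0.85 for Erbb3, 0.84 for Erbb2, 0.77 for Areg and 0.71 for Tgfa, and within groups 0.83, 0.82, 0.79 and 0.67. Without the 2 samples farthest from the median of the list these were 0.84, 0.82, 0.83 and 0.59. The samples with the most Areg had many of these transcripts. The summed marker level was 166.3 CPM in BCP replicate 1, against 44.3 to 55.0 CPM in the other 3 BCP samples. It was 130.6 CPM in BCP+MSC+Treg replicate 1, with all 16 markers detected, against 39.9 to 56.8 CPM in the other 3 of that group. In BCP+MSC+RvE1 replicate 2, which had no Areg count, 8 of the 16 markers were at 0. Krt5 was at 33.4 CPM in BCP replicate 1 and at 0 in BCP replicate 2. Trp63 was at 8.69 CPM in BCP replicate 1 and at 0.818 to 2.96 CPM in the other 3 BCP samples. The list was not raised evenly, since in BCP replicate 1 Lor was at 0 and Krt1 at 0.0583 CPM. Krt10 was at 3.15 CPM there, against 0.567 to 2.61 CPM in the other 3. Which epithelial cells carried the markers was not tested. With the marker mean as a covariate, Areg in BCP+MSC+Treg against BCP+MSC+RvE1 was at 0.37 (adjusted p = 1.0) in place of 2.89. The covariate for sex-linked genes also lowered it, to 0.71. The part of skin content or of sex in the Areg difference was not tested.

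**Figure D4:**
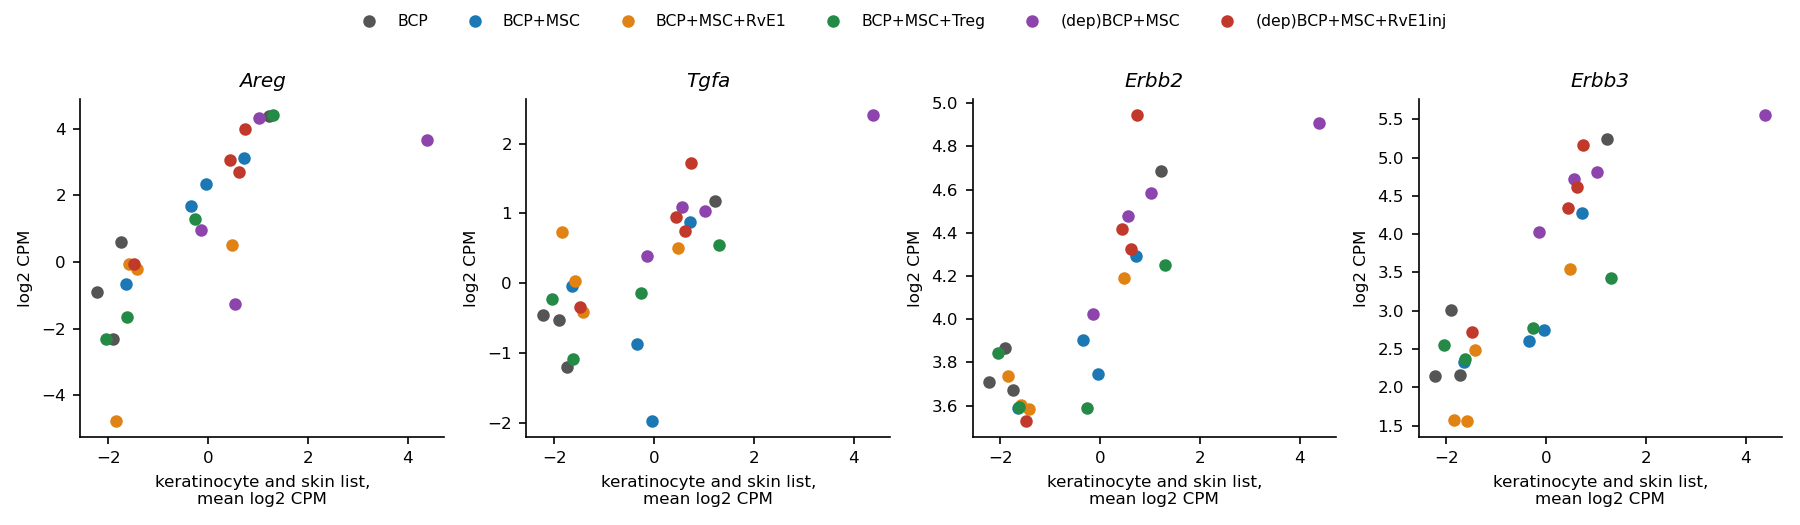
Log2 CPM of Areg, Tgfa, Erbb2 and Erbb3 against the mean log2 CPM of the 16 keratinocyte and skin markers, one point per sample, coloured by group. Each is higher where the markers are higher (r of 0.77, 0.71, 0.84 and 0.85), and the (dep)BCP+MSC library numbered 1 lies far to the right at 4.39.

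The Treg markers did not follow Areg to the same degree (r = 0.31 over 24 samples). Their summed level was 85.1 to 126.8 CPM in BCP+MSC+Treg and 76.3 to 130.6 CPM in BCP+MSC+RvE1, and Foxp3 was at 0.420 CPM in BCP+MSC+Treg replicate 1, the sample with 21.3 CPM of Areg. Hbegf instead followed the monocyte and macrophage list (r = 0.73, within groups 0.73) and the Treg list (0.71, within groups 0.87). Egfr followed the fibroblast and stroma list (0.71, within groups 0.80). Egf followed skeletal muscle (0.68, within groups 0.68), and Ereg was inverse to adipocyte markers (-0.72), an r of -0.34 without the 2 samples farthest from the median.

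**Figure D5:**
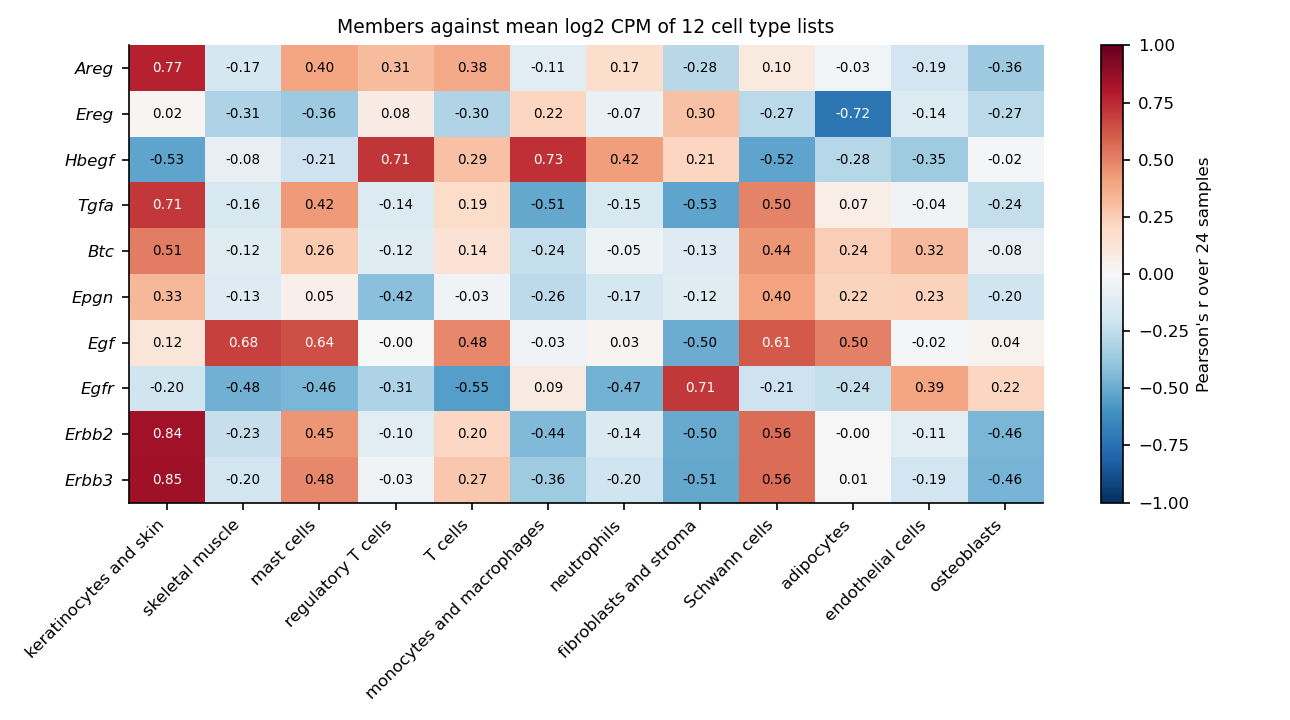
Pearson's r over the 24 samples between log2 CPM of each member (rows) and the mean log2 CPM of 12 cell type marker lists (columns). Erbb3, Erbb2, Areg and Tgfa each have their highest value in the first column (0.85, 0.84, 0.77 and 0.71), Hbegf with macrophages (0.73) and Egfr with fibroblasts (0.71).

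Among 14304 genes with a median of at least 1 CPM, the 5 whose log2 CPM was most like Areg over the 24 samples were Ggt1, Krt17, Krt8, S100a14 and Krt7 (Pearson's r of 0.84, 0.84, 0.84, 0.83 and 0.83, Spearman's rho of 0.88, 0.87, 0.81, 0.86 and 0.79). Krt7, Krt8 and Krt17 encode epithelial keratins. Krt17 is also on the keratinocyte and skin list. The 5 most like Hbegf were Ripk2, Ch25h, Snx6, Ccl7 and Acap1 (r of 0.90, 0.87, 0.87, 0.87 and 0.86). Ccl7 is a monocyte chemokine and Ripk2 a kinase of innate immune sensing. The 5 most like Egfr were Nid1, Lamc1, Pdgfra, Uggt2 and Phactr2 (r of 0.95, 0.94, 0.94, 0.92 and 0.92), of which Nid1 and Lamc1 encode basement membrane proteins and Pdgfra a receptor of fibroblasts.

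The rest of the pathway was read from 5 lists, whose counts stand beside 3.92% of all genes at the adjusted limit in (dep)BCP+MSC against BCP+MSC and 0% in the other comparisons. Of the 4 neuregulins and Erbb4, 0 of 5 had an unadjusted p under 0.05 in any of the 8 comparisons. Of 10 genes of ligand shedding (ADAM proteases, iRhom proteins and their regulators), 1 passed the adjusted limit, in (dep)BCP+MSC against BCP+MSC. This was Adam12, a protease able to shed Hbegf, at 14.0 to 33.9 CPM against 45.6 to 184.9 CPM, a log2 difference of -1.97 ± 0.53 (adjusted p = 0.0387). Of 18 genes of receptor feedback and turnover, Socs5, an inhibitor of EGFR signalling, fell in the same comparison from 38.6 to 44.3 CPM in BCP+MSC to 8.37 to 31.3 CPM, by 1.10 ± 0.27 on the log2 scale (adjusted p = 0.0222). Of 21 adaptors and kinases, Pik3r1, the regulatory subunit of PI3 kinase, was higher there (101.5 to 209.8 CPM against 47.0 to 106.3 CPM, 1.13 ± 0.29, adjusted p = 0.0269). The median log2 difference in these 3 lists was -0.18, -0.04 and 0.06, beside -0.04 for all genes. Each of the 3 calls was lost in 4 of 24 fits without 1 sample, with adjusted p-values of 0.0538 to 0.148 for Adam12 (lost without BCP+MSC replicate 2 or without the (dep)BCP+MSC libraries 1, 2 or 5, and at -1.29 without BCP+MSC replicate 2). They were 0.0539 to 0.103 for Socs5 (BCP+MSC replicates 1 or 2, (dep)BCP+MSC libraries 1 or 2) and 0.0832 to 0.114 for Pik3r1 (BCP+MSC replicates 1 or 3, (dep)BCP+MSC libraries 1 or 2). All 3 were also past the limit no longer with the skin markers as a covariate (adjusted p of 0.0764 to 0.108), without the 7 shallowest libraries (0.0580 to 0.107) and with only the groups compared (0.0820 to 0.161). Adam12 did not pass either with no filter (adjusted p = 0.0592) or with the replicate block (adjusted p = 0.0624). In the other 7 comparisons 0 genes of these lists passed the adjusted limit.

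Of 20 genes that ERK signalling induces, 0 had an adjusted p under 0.05 in any comparison by edgeR. Of those named here, DESeq2 put Fosb in BCP+MSC+Treg against BCP (adjusted p = 0.00242), Dusp4 in BCP+MSC+RvE1 against BCP (0.0414) and Dusp5 in (dep)BCP+MSC against BCP+MSC (0.0160) under it. Past the unadjusted limit, 5 of 20 were lower in BCP+MSC+Treg against BCP, 3 after RvE1 priming and 1 in BCP+MSC, beside the 2.09%, 3.18% and 1.83% of all genes on that side, with medians of -0.38, -0.41 and -0.43. Fosb, an immediate early gene, was at 6.01 to 472.6 CPM in BCP, at 2.74 to 5.59 CPM in BCP+MSC+Treg (log2 difference -5.46 ± 1.37, adjusted p = 0.614) and at 5.20 to 35.6 CPM in BCP+MSC (-3.53 ± 1.24, adjusted p = 0.888). Without BCP replicate 3 the latter was -2.49 and did not pass the unadjusted limit. It was lower in BCP+MSC+Treg than in BCP+MSC+RvE1 as well (-3.46 ± 1.25, adjusted p = 1.0, and -1.58 without BCP+MSC+RvE1 replicate 3). With the replicate block this was -2.46 and no longer past the unadjusted limit. Fos was at 35.3 to 53.2 CPM in BCP+MSC+Treg against 41.6 to 641.9 CPM in BCP (-2.33 ± 0.72, adjusted p = 0.614, and -1.03 without BCP replicate 3). In BCP+MSC+RvE1 against BCP, Dusp4, a phosphatase that dampens ERK, did not overlap (6.20 to 10.3 against 13.5 to 32.0 CPM, -1.60 ± 0.41, adjusted p = 0.3), and Egr3 was at -3.10 ± 1.02 (adjusted p = 0.3). Etv4 was 0.94 ± 0.33 higher in BCP+MSC than in BCP (adjusted p = 0.888).

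In (dep)BCP+MSC against BCP+MSC, 3 of the 20 ERK-induced genes passed the unadjusted limit, all lower, beside 6.53% of all genes on that side, with a median of -0.54. Dusp5 was at 4.09 to 19.6 CPM against 16.2 to 35.9 CPM (-1.34 ± 0.40, adjusted p = 0.0577). Etv5, which was under the fold limit, was at 12.6 to 37.1 CPM against 32.6 to 51.7 CPM (-0.85 ± 0.32, adjusted p = 0.131). Dusp5 was under the adjusted limit with filterByExpr (0.0458), and both were with the replicate block (0.0255 and 0.00911) and the covariate for sex-linked genes (0.0217 and 0.0471). After RvE1 injection Dusp4 was at 6.04 to 13.9 CPM against 12.0 to 21.6 CPM (-0.87 ± 0.41, adjusted p = 0.668).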

How the data were processed

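Samples were grouped by their labels, which match the groups of the study's methods, and each group held 4 samples of 1 animal each. For each whole construct the authors prepared a stranded mRNA library and paired-end reads, which they aligned with HISAT2 2.0.5 and counted with featureCounts 1.5.2 on GENCODE M13 (GRCm38). The deposited values are raw counts per gene, without normalization, counted without a strand option. All 24 columns were used. The (dep)BCP+MSC columns carry the numbers 1, 2, 4 and 5, of which 4 and 5 match no label and were used without a replicate number. The file header lists 28 alignment files, of which 4 named RVE are not analysed here.

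Counts were tested with edgeR 4.0.16 (R 4.3.3) by a quasi-likelihood model of the 6 groups with TMM normalization and robust dispersions, for the 30564 genes whose counts summed to 10 or more, with Benjamini-Hochberg adjustment over all of them. Limits were an adjusted p under 0.05, and an unadjusted p under 0.05 with a log2 fold change beyond 1. CPM are TMM-scaled, and log2 CPM has a prior count of 2. An exact permutation test, two-sided, was added for single genes. Alternatives were RLE normalization, filterByExpr, every gene kept, a block for replicate number, covariates for sex-linked genes and for the skin list, only the groups compared, DESeq2 1.42.0, each sample left out, and, chosen after seeing the data, the 7 shallowest libraries left out. The model was tested on simulated data.

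Same-numbered samples deviated together (correlation over 0.1 in every pair) only in the comparison of BCP+MSC+Treg with BCP+MSC+RvE1, with 0.462, 0.563, 0.551 and 0.157. The labels name no shared litter or day, so the pairing is a hint from the data.

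The members and lists were chosen with earlier results of these data known. All 10 members are named. From each pathway list the genes with an adjusted p under 0.05 are named (at most 4 per comparison) or, where a list had none, at most 2 per comparison with an unadjusted p under 0.05. Samples are separate animals, and p-values measure the spread between them. Tables were handled in Python 3.11.15 with pandas 2.3.3, numpy 2.4.6 and scipy 1.17.1, and drawn with matplotlib 3.10.9.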

Additional observations from a re-analysis of the deposited data

Results flagged for a closer look

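Over the 60 sets of 4 samples (10 members in 6 groups), Dixon's ratio was taken on log2 CPM with a prior count of 2. It is the gap to the nearest sample over the group's range, and it was not taken on CPM itself. By it 2 samples stood farther from the rest of their group than the critical value allows, where chance gives about 1 in 20. Areg in BCP+MSC+RvE1 replicate 2 was at 0 CPM, against 0.832 to 1.40 CPM in the other 3. Its log2 CPM of -4.776 was set by the prior count, so the size of this gap rests on that choice. This library held 18077487 counts, so that its floor of 3 counts was 0.166 CPM. Ereg in BCP+MSC+RvE1 replicate 3 was at 2.33 CPM, against 0.662 to 0.812 CPM in the other 3.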

How the results depend on the processing

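The 10 members were counted in each comparison under 9 other settings and in 24 fits without 1 sample, and 28 log2 fold changes were recomputed. The 924 recomputed fold changes were judged at an unadjusted p of 0.05 with no limit on the fold (at the adjusted p for Adam12, Socs5 and Pik3r1). Of these, 813 kept their direction and side, 86 went above 0.05, 3 came under it and 22 reversed. All 22 reversals were for Areg, which was entered in every comparison whatever its p. The other genes were entered only where the unadjusted p was under 0.05. Differences short of that limit, which can change sign more easily, were thus entered for Areg alone. Whether Areg was less stable than the other genes cannot be read from this count. Adjusted calls by DESeq2 are counted separately. The cause was not tested.

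Areg reversed with the replicate block in BCP+MSC against BCP (1.58), BCP+MSC+Treg against BCP+MSC (-1.23), (dep)BCP+MSC against BCP+MSC (-1.79) and (dep)BCP+MSC+RvE1inj against (dep)BCP+MSC (2.43). Without the 7 shallowest libraries it was 2.37 in BCP+MSC and 0.32 in BCP+MSC+RvE1 against BCP. With the skin covariate it was -0.72 in BCP+MSC+Treg against BCP, -0.43 against BCP+MSC, -0.84 in (dep)BCP+MSC against BCP+MSC and 1.09 in (dep)BCP+MSC+RvE1inj against (dep)BCP+MSC. With the covariate for sex-linked genes it was 0.86 in that last comparison and 0.36 in BCP+MSC+RvE1 against BCP+MSC. Without 1 sample Areg ran from -0.98 to 2.56 in BCP+MSC, -3.20 to 0.16 in BCP+MSC+RvE1 and -2.49 to 3.05 in BCP+MSC+Treg against BCP, from -2.11 to 1.06 in BCP+MSC+Treg against BCP+MSC and from -0.75 to 0.70 in (dep)BCP+MSC+RvE1inj against (dep)BCP+MSC.

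Members past the unadjusted limit numbered 0 in BCP+MSC against BCP with the replicate block, the covariate for sex-linked genes, only the groups compared or without the 7 shallowest libraries (0 to 2 without 1 sample). In BCP+MSC+RvE1 against BCP they numbered 0 with the block, only the groups compared or without those libraries, and 3 by DESeq2 (1 to 2 without 1 sample). In BCP+MSC+Treg against BCP they numbered 0 with the block or without those libraries (0 to 2). In BCP+MSC+RvE1 against BCP+MSC 1 passed with the covariate for sex-linked genes (Hbegf, -1.08) and 1 with only the groups compared (Areg, -2.41), and 0 to 1 without 1 sample, as in BCP+MSC+Treg against BCP+MSC (0 to 1). By DESeq2 1 passed in BCP+MSC+Treg against BCP+MSC+RvE1. In (dep)BCP+MSC against BCP+MSC 1 passed with the skin covariate and 0 to 3 without 1 sample, and at the adjusted limit 1 passed with the covariate for sex-linked genes (Erbb3, adjusted p = 0.0360) and 2 by DESeq2, while all genes at that limit numbered 1198 as reported, 2859 by DESeq2, 2443 with the block, 565 with the skin covariate, 630 without the 7 shallowest libraries and 157 with only the groups compared. With the block 1 passed in (dep)BCP+MSC+RvE1inj against (dep)BCP+MSC (Hbegf, 1.23). In the test over 6 groups 2 members had an unadjusted p under 0.05, 1 with the block or without the 7 shallowest libraries, 4 with the covariate for sex-linked genes, 3 by DESeq2 and 1 to 4 without 1 sample. For the contrast of RvE1 injection with RvE1 priming 0 had, 2 with the block (Areg, 5.33, and Hbegf, 1.57) and 0 to 1 without 1 sample.

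The block left out the (dep)BCP+MSC libraries 4 and 5. Of 28 same-numbered pairs, 10 correlated over 0.1, and the pairing held for BCP+MSC+Treg against BCP+MSC+RvE1 alone, where the block changed no call of a member and took Fosb off the unadjusted limit (-2.46). Depth limits Epgn most.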
